A study of Homo sapiens with 8 samples.

Results

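Respiratory complex I, the NADH:ubiquinone oxidoreductase of the inner mitochondrial membrane, was examined through the transcripts of 41 of its subunit genes. Of these, 7 are encoded by mitochondrial DNA (MT-ND1 to MT-ND6 with MT-ND4L) and 34 by autosomes on 17 chromosomes. Members were taken from a list of subunit names, not by a cut on their measured values. The list was chosen with earlier results of these data known. The FPKM of all listed transcripts of a gene was summed. FPKM is a fragment count divided by transcript length and by library size. All 41 members were found among 24351 genes, and all 41 passed the filter of at least 1 FPKM in at least 2 libraries that left 14905 genes for testing. The list is not the whole complex: NDUFA1 and NDUFB11, subunits outside it, stood at 86.3 to 120.2 and 80.3 to 93.3 FPKM.

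The study measured poly(A) RNA by sequencing in ARP1 and H929, which are human multiple myeloma lines, grown from tumours of antibody-secreting plasma cells. Each line was profiled in 4 genotypes: overexpression of CHEK1, the control for it, knockdown of CHEK1, and the control for that. CHEK1 encodes a kinase of the DNA damage checkpoint. Each line and genotype had 1 library, so a genotype has n = 2, and the lines serve as its replicates. The labels do not state how CHEK1 was raised or lowered, nor whether a library came from 1 clone, and no treatment is listed. P-values below reflect how far these 8 libraries scatter, and nothing about other myeloma lines.

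Complex I takes electrons from NADH at its peripheral arm and passes them along iron-sulfur clusters to ubiquinone, while its membrane arm pumps protons. The N module binds NADH, the Q module reduces ubiquinone, and the membrane arm holds the mitochondrially encoded ND subunits, which form its core. Nuclear members are either core subunits that carry the chemistry or supernumerary subunits that surround them, and assembly needs both genomes. The list holds 6 nuclear core and 28 supernumerary members.

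CHEK1 stood at 114.4 FPKM in the ARP1 overexpression library, against 78.2 in its control, and at 107 in the H929 overexpression library, against 81.6. In the libraries labelled knockdown it stood at 51.6 in ARP1, against 61.0 in the control, and at 84.8 in H929, against 80.7, so the H929 label was not borne out by the CHEK1 level. The ARP1 controls themselves stood at 78.2 and 61.0. Over both lines CHEK1 passed in neither fit. Its log2 change was 0.47 ± 0.20 (SE) for overexpression (limma adjusted p = 0.994) and -0.08 ± 0.20 for knockdown (limma adjusted p = 0.904). All 10 plasma cell markers listed were tested and summed to 3166 to 5840 FPKM per library. Markers of other cells summed to at most 14.3 FPKM (T and NK cells), 2.89 (myeloid cells), 17.1 (stroma and epithelium), 1.95 (erythroid cells) and 0.164 (adipocytes). The T and NK cell maximum, led by GNLY, and that of stroma and epithelium, led by KRT18, were in H929. In ARP1 these sums reached at most 1.14 and 5.48. GNLY, CD68, FCER1G, COL1A1, PDGFRB, KRT8, KRT18 and HBB reached 1 FPKM in at least 1 library. The other markers of these lists stayed under 1 FPKM. The extraction protocol speaks of adipose tissue, while all 4 adipocyte markers listed were under 1 FPKM. Summed FPKM was 631871 to 693299 per library. The number of reads per library is unknown, and with it the counting error. In bulk RNA, fewer cells and less RNA per cell cannot be told apart.

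The mitochondrial members lie close together on the mitochondrial genome, and for some pairs the letters themselves limit what a transcript table can separate. On GRCh38, MT-ND4L spans chrM:10470-10766 and MT-ND4 spans chrM:10760-12137 on the same strand. The end of MT-ND4L and the start of MT-ND4 are printed because both genes share 7 bases there, given in capitals, and both proteins are translated from 1 joint messenger RNA.
MT-ND4L: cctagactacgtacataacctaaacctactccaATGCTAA
MT-ND4: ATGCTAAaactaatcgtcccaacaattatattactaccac
MT-ND5 ends at chrM:14148 on the plus strand. MT-ND6, the only ND gene of the minus strand, spans chrM:14149-14673, so its end lies 1 base beyond the end of MT-ND5. MT-ND6 messenger RNA is known to lack a poly(A) tail, and the strand setting of these libraries was not stated. Reads of MT-ND6 and of RNA antisense to it therefore cannot be told apart. The MT-ND4L transcript is 297 nt long, under the insert size of about 300 given per the labels.

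Mitochondrially encoded members were far more abundant than nuclear ones. Their mean levels over the 8 libraries ran from 1515 to 5315 FPKM, with a median of 1746, against 3.998 to 229.9 FPKM and a median of 93.8 for the nuclear members. The 13 mitochondrially encoded messenger RNAs together took 5.54% to 8.12% of all FPKM, and the 7 complex I genes took 33.1% to 37.4% of those 13.

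Values of each mitochondrial member are given for overexpression, its control, the library labelled knockdown and its control, in that order. MT-ND1, which borders the ubiquinone site, had 1118, 1383, 1739 and 1596 FPKM in ARP1, against 1684, 1595, 1542 and 1464 in H929. MT-ND2, the first of the antiporter-like proton channels, had 1081, 1316, 1805 and 1567 in ARP1, against 1845, 1620, 1505 and 1468 in H929. MT-ND3, a small subunit near the junction of both arms, had 1115, 1366, 1735 and 1591 in ARP1, against 2183, 1787, 1858 and 1776 in H929. In all 3 the ARP1 overexpression library was the lowest of 8. MT-ND4, an antiporter-like subunit, had 1602, 1891, 2502 and 2364.5 FPKM in ARP1, against 2171, 1984, 2038 and 2123 in H929. MT-ND4L, a small subunit of the proton path, had 3646, 3268, 6340 and 6260 in ARP1, against 6431, 4574, 5714 and 6291 in H929. Both showed low values in the overexpression library of ARP1 and its control, below all 6 other libraries. MT-ND5, the antiporter-like subunit at the far end of the membrane arm, had 1460, 1769, 1352 and 2117 FPKM in ARP1, against 1845, 1814, 2046 and 1562 in H929. MT-ND6, a membrane arm core subunit, had 2207, 2582, 2276 and 3694 in ARP1, against 2898, 3192, 4045 and 2724 in H929. These neighbours had the same pattern, as in the library labelled knockdown both stood below their control in ARP1 and above it in H929.

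**Figure D1:**
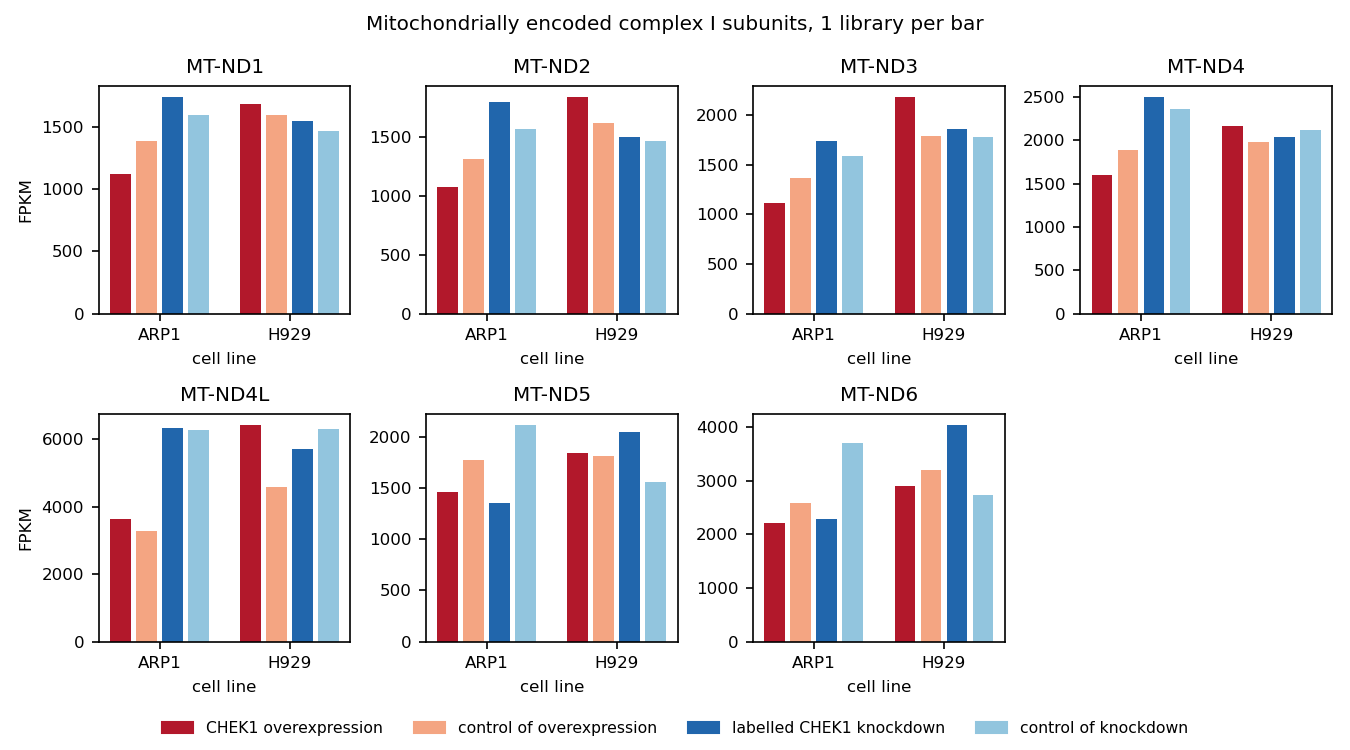
Levels in FPKM of the 7 mitochondrially encoded complex I members, 1 bar per library, with ARP1 left of H929 and the genotypes in 4 colours. In ARP1, MT-ND1 to MT-ND4 stand highest in the library labelled knockdown (MT-ND4, 2502 FPKM), while MT-ND5 (1352 FPKM) and MT-ND6 (2276 FPKM) do not follow.

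The ratio of MT-ND5 to MT-ND4 made that departure plain. It was 0.540 in the ARP1 library labelled knockdown, against 0.896 in its control, and 1.004 in the H929 library labelled knockdown, against 0.736 in its control. In the overexpression libraries it was 0.911 in ARP1, against 0.935 in its control, and 0.850 in H929, against 0.914. MT-ND6 over MT-ND5 stayed between 1.46 and 1.98 in all 8 libraries. A fit with a separate effect per line, which pooled both controls of a line, put the knockdown effect on MT-ND5 in ARP1 minus that in H929 at a log2 difference of -0.80 ± 0.33 (SE) and on MT-ND6 at -0.90 ± 0.44. Neither passed (limma, Benjamini-Hochberg adjusted p = 0.633 and 0.653), and no gene of 14905 did (percent called 0), although 1161 genes had an unadjusted p under 0.05.

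Set against the nuclear members, the mitochondrial ones stood apart in a pair of ARP1 libraries. Summed over the 7 genes, ARP1 had 12228 FPKM with overexpression, against 13576 in its control, and 17750 in the library labelled knockdown, against 19191 in its control. H929 had 19058 with overexpression, against 16565, and 18748 in the library labelled knockdown, against 17407. Summed over the 34 nuclear genes, ARP1 had 3467 with overexpression, against 3747, and 2958 in the library labelled knockdown, against 3595, and all 4 H929 libraries lay between 3067 and 3182. The mitochondrial sum over the nuclear sum was 3.53 in ARP1 overexpression and 3.62 in its control, and 5.21 to 6.10 in the other 6 libraries. The low pair is an overexpression library and its own control, which differed little from each other in this ratio. Without transcripts under 300 nt, which takes out MT-ND4L, the ratio was 2.48 and 2.75 in that pair and 3.61 to 4.13 in the others. The labels list no batch.

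**Figure D2:**
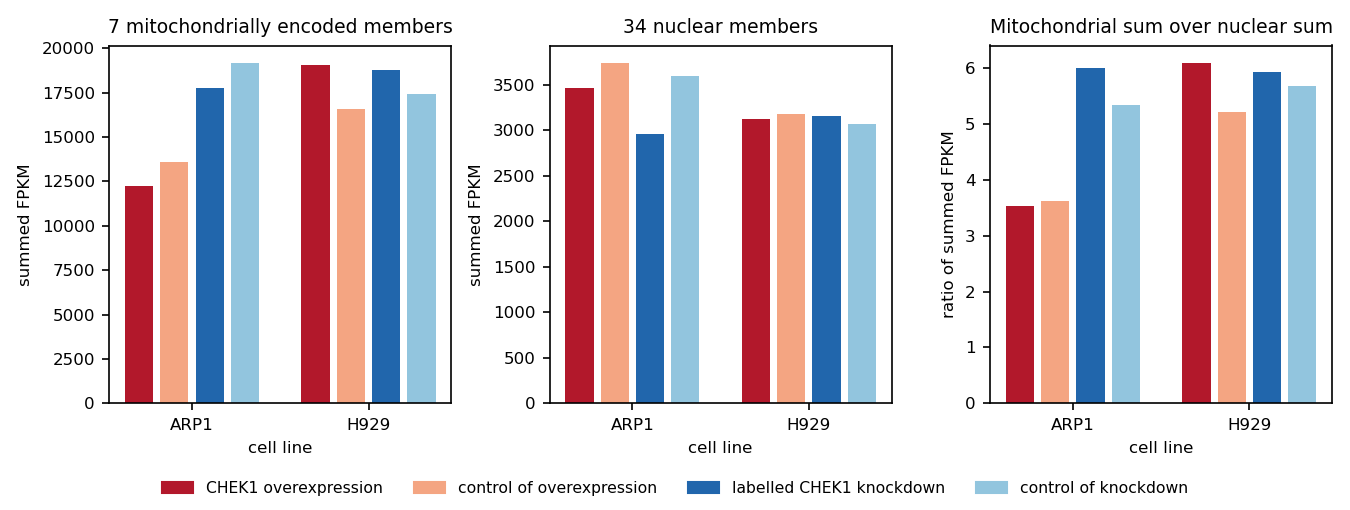
Summed FPKM of the 7 mitochondrially encoded members, of the 34 nuclear members, and the ratio of both sums, 1 bar per library, with ARP1 left of H929. The ARP1 overexpression library (ratio 3.53) and its control (3.62) stand below the other 6 libraries (5.21 to 6.10).

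Among the nuclear members the spread of levels was wide. NDUFV2, an iron-sulfur subunit of the N module, averaged 229.9 ± 51.7 FPKM (SD, n = 8), NDUFB1, a small subunit of the distal membrane arm, 229 ± 33.1, and NDUFB8 of the same arm 173 ± 22.6. At the other end stood NDUFA6, an N module subunit of the LYR family that binds the acyl carrier protein, at 3.998 ± 1.49, NDUFS6, a zinc-binding N module subunit, at 30.2 ± 9.46, and NDUFC1 at 30.8 ± 7.52. NDUFV2 and NDUFB1 do not differ beyond their spread, nor do NDUFS6 and NDUFC1. Within modules, mean levels ran from 3.998 to 229.9 FPKM over 10 N module genes, 37.5 to 98.8 over 5 Q module genes, 30.8 to 169.6 over 8 nuclear genes of the proximal membrane arm, and 33.3 to 229 over 10 of the distal arm. NDUFAB1, the mitochondrial acyl carrier protein, averaged 158 ± 25.2. The subunits of 1 complex thus did not share 1 transcript level, and NDUFA6 stood far below the rest.

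The coefficient of variation over the 8 libraries ran from 6.38% to 37.2% among nuclear members, with a median of 18.9%, and from 13.0% to 24.5% among mitochondrial ones. NDUFA10 (6.38%), NDUFS1 (6.76%), which carries iron-sulfur clusters of the N module, and NDUFS4 (8.64%) varied least. NDUFA6 (37.2%), NDUFA3 (33.2%) and NDUFS6 (31.3%) varied most. Of the 41 members, 22 share exonic bases with another annotated gene, 15 of them on the opposite strand, so part of their reads may belong to a neighbour. Among them are NDUFA6, NDUFA3 and NDUFS1, and NDUFS6 is not.

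The nuclear core subunits are given for overexpression, its control, the library labelled knockdown and its control. NDUFV2 had 224, 277, 146 and 316 FPKM in ARP1, against 248, 228, 202 and 199.6 in H929. NDUFS1 had 57.9, 55.6, 49.2 and 60.1 in ARP1, against 61.4, 60.5, 58.8 and 56.7 in H929, and NDUFS3 had 104, 93.8, 81.7 and 109.96 in ARP1, against 103, 96.1, 88.1 and 91.5 in H929. These 3 had their lowest value of all 8 in the ARP1 library labelled knockdown. NDUFS8, which carries the pair of iron-sulfur clusters that lead to the last one, had 85.1, 122, 100.2 and 122 in ARP1, against 73.4, 80.8, 109 and 98.1 in H929. NDUFS8 was lowest with overexpression in each line, while NDUFV1 and NDUFS7 were set apart mainly by the line and are described with that comparison.

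With CHEK1 overexpression against its control, no complex I member passed the threshold of adjusted p 0.05, in a comparison where 0.00671% of all genes did. Unadjusted, 3 of 41 members had p under 0.05, against 4.45% of all genes. The median log2 change was -0.03 over the nuclear members, -0.05 over the mitochondrial ones and -0.01 over all genes. In both lines alike, 10 of 41 members were higher and 10 lower, against 28% and 30.1% of all genes. The mitochondrial medians differed in sign between the lines, -0.28 in ARP1 and 0.13 in H929, and no mitochondrial member had an unadjusted p under 0.05. MT-ND4L had the largest log2 change among them, 0.32 ± 0.24 (SE), with a value above its control in both lines, and MT-ND6, at -0.18 ± 0.27, was the one below its control in both. NDUFA5, a Q module subunit, had 58.2 and 77.0 FPKM in ARP1 and H929 overexpression, against 43.2 and 64.3 in their controls (log2 0.34 ± 0.12 SE, limma adjusted p = 0.994, higher in both lines). NDUFA2, a thioredoxin-fold N module subunit, had 76.6 and 49.1, against 99.1 and 70.3 (-0.44 ± 0.18, limma adjusted p = 0.994). NDUFA13, also known as GRIM-19, had 123 and 95.02, against 169 and 117 (-0.38 ± 0.15, limma adjusted p = 0.994). None of these passed the test. The ranking that took them required the same direction in both lines, so that agreement is not a result.

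The other members that the ranking took for overexpression were smaller. NDUFA8, a cysteine-rich intermembrane space subunit, had a log2 change of 0.26, NDUFA12 0.19 and NDUFS3, a core Q module subunit, 0.13. NDUFB7 had -0.27 and NDUFB8 -0.21. Set against the knockdown control of the same line in place of their own, NDUFA13 and NDUFB8 came to 0.07 and 0.18, so their sign turned with the control used. NDUFA6 had 1.29 FPKM in ARP1 overexpression, against 4.44 in its control, and 4.07 in H929 overexpression, against 2.21. This lowest member thus stood below its control in ARP1 and above it in H929, and it was the only member with a ratio of 1.5-fold or more in the overexpression comparisons of both lines. In ARP1 that made 1 of 34 nuclear members lower, against 6.91% of all genes, and in H929 1 of 34 higher, against 3.73%. None was higher in ARP1 (4.56% of all genes were) or lower in H929 (5.2%).

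In the libraries labelled knockdown, no member passed the threshold against the control either (0.0134% of all genes did), and 3 of 41 had an unadjusted p under 0.05, against 9.14% of all genes. The nuclear members leaned low in 1 line. In ARP1, 25 of 34 stood below the control, with a median log2 ratio of -0.28, against -0.03 over all genes. In H929, 12 of 34 did, with a median of 0.02, against 0.0009 over all genes. In both lines alike, 9 of 41 members were higher and 9 lower, against 27.2% and 28.9% of all genes. The lean over both lines, 27 of 34 negative with a median of -0.12, thus rests on ARP1. Of all 14905 genes, 7791 were negative in that fit. The nuclear median was -0.29 without the H929 library labelled knockdown and 0.03 without that of ARP1. The summed nuclear FPKM of the ARP1 library labelled knockdown, 2958, was the lowest of all 8 libraries, and 18 of the 34 nuclear members were at their ARP1 minimum in it. The matching share over all genes was not counted, so this is not shown to be particular to complex I. Without the H929 library labelled knockdown, NDUFB10 passed, 1 of 34 nuclear members (2.94%), against 5.62% of all genes in that fit. The 7 mitochondrial members had log2 changes of -0.13 to 0.12 over both lines, none with an unadjusted p under 0.05.

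In ARP1, 5 of 34 nuclear members (14.7%) were lower by 1.5-fold or more in the library labelled knockdown, against 13.5% of all genes, and none was higher, against 12.4%. Their ratios come from 1 library over 1 library, with no replicate check, and they were picked after their values were seen. NDUFV2 had 146 FPKM in the ARP1 library labelled knockdown, against 316 in its control, and 202 in the H929 one, against 199.6. NDUFB10, a distal arm subunit, had 70.5, against 139.8, in ARP1, and 113 in H929, against 106. NDUFB2, of the same arm, had 61.9, against 107.9, in ARP1, and 176 in both H929 libraries. The low ARP1 levels had no counterpart in H929 in any of the 3. NDUFAB1 had a log2 ratio of -0.71 in ARP1 and 0.02 in H929, and NDUFA8 -0.59 and 0.02. In H929, NDUFA3 alone was lower by that fold (31.6 FPKM, against 60.4; 4.78% of all genes were), and none was higher (4.72%).

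The difference of the lines' knockdown effects was tested with both controls of a line pooled. It had a log2 size of -1.19 ± 0.26 (SE) for NDUFB10 and -0.93 ± 0.26 for NDUFV2 (limma adjusted p = 0.61 for both). Unadjusted, 5 of 41 members had p under 0.05, all with the lower value in ARP1, against 7.79% of all genes. The other 3 were NDUFB2, NDUFS5 and NDUFA12. For the overexpression effect, 2 of 41 had p under 0.05, NDUFS5 and NDUFA6, against 1.87% of all genes, and none passed after adjustment.

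Among the 18 members with 1 direction in both lines for the label knockdown, the ranking took 4 higher and 4 lower ones. NDUFC1 had 23.0 and 34.8 FPKM in the ARP1 and H929 libraries labelled knockdown, against 30.9 and 43.6 in their controls (log2 -0.36 ± 0.13 SE, limma adjusted p = 0.538). NDUFB6 had 28.7 and 32.7, against 36.3 and 41.6 (-0.33 ± 0.13, limma adjusted p = 0.539). NDUFB1 had 273 and 228, against 240.2 and 165 (0.32 ± 0.13, limma adjusted p = 0.544). None passed, and with the other control of the line NDUFC1 came to 0.04 and NDUFB6 to 0.01. NDUFA5 had -0.27 and NDUFB3 -0.30, and NDUFA7 had 0.16, NDUFV3 0.10 and NDUFB8 0.07. The last 2 turned to -0.26 and -0.31 with the other control.

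**Figure D3:**
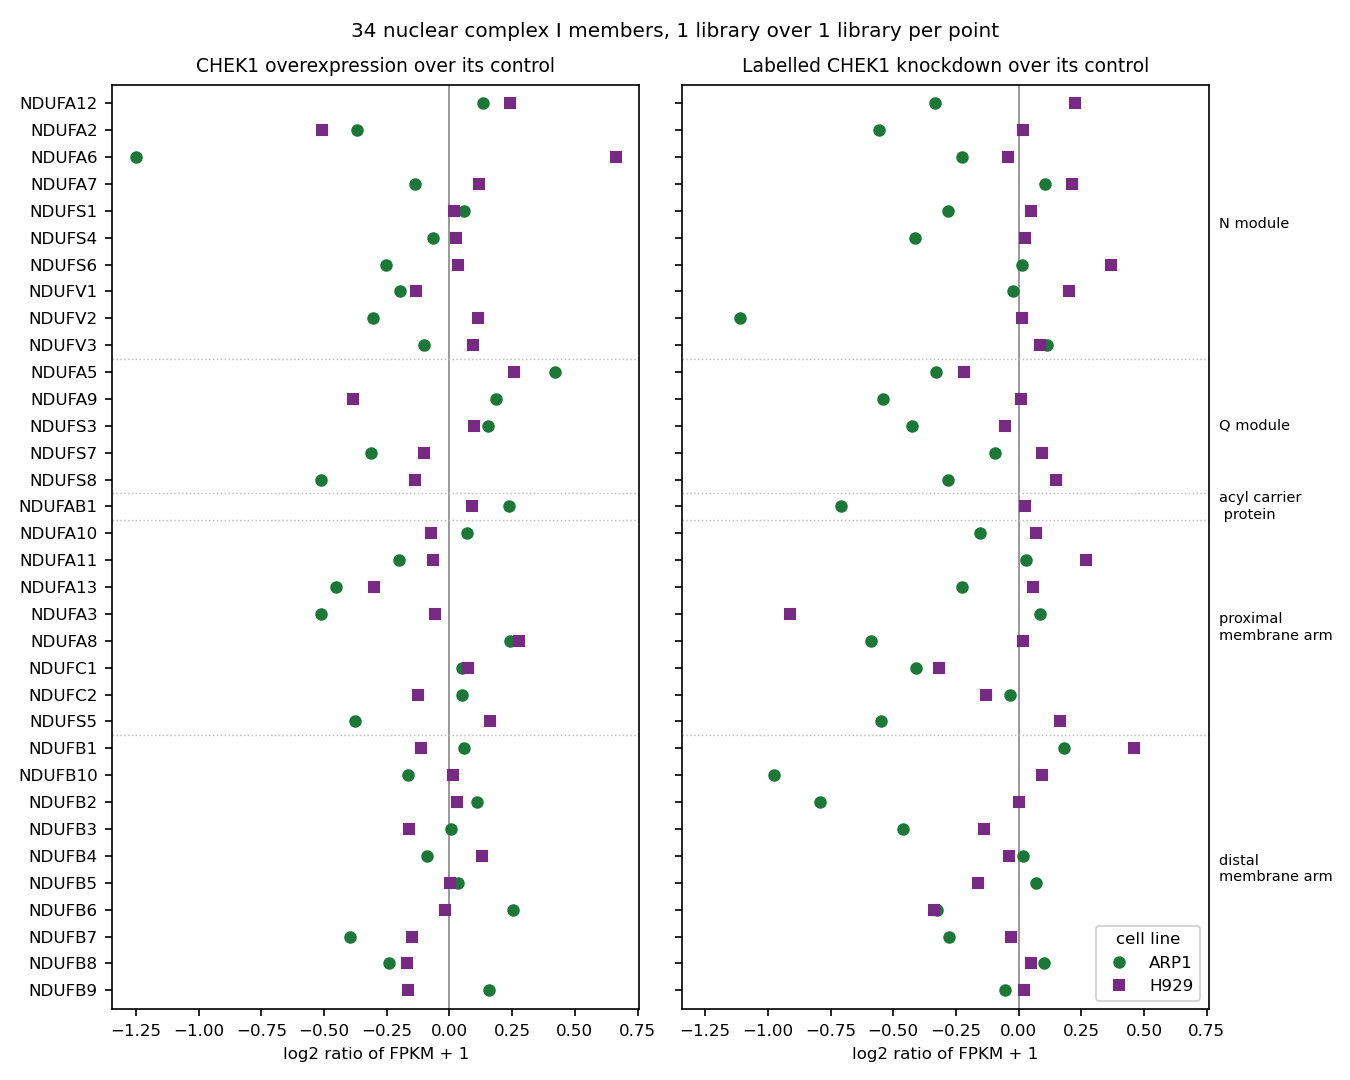
Log2 ratios of FPKM + 1 for the 34 nuclear members, grouped by module, in CHEK1 overexpression over its control (left) and in the libraries labelled knockdown over their control (right), with ARP1 as circles and H929 as squares. On the right, 25 of 34 circles and 12 of 34 squares lie below 0, and NDUFV2, NDUFB10 and NDUFB2 have the lowest circles.

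Each line has a pair of controls, and their contrast shows how far libraries labelled as controls lie apart. Between the overexpression controls and the knockdown controls, no member passed (0.0537% of all genes did, 0.0201% higher and 0.0335% lower), yet 9 of 41 had an unadjusted p under 0.05, against 10.7% of all genes. The count exceeds that of either CHEK1 comparison. In both lines alike, 11 members were higher and 15 lower, against 30.3% and 32.9% of all genes. NDUFS6 had 43.5 and 36.6 FPKM in the ARP1 and H929 controls of overexpression, against 19.4 and 21.1 in the controls of knockdown (log2 0.95 ± 0.19 SE, limma adjusted p = 0.306). MT-ND4L had 3268 and 4574, against 6260 and 6291 (-0.70 ± 0.24, limma adjusted p = 0.395). MT-ND4, of the same joint messenger RNA, had 1891 and 1984, against 2364.5 and 2123. Both genes were thus lower in the control of overexpression in each line. The FPKM ratio of MT-ND4L to MT-ND4 ran from 1.73 to 2.96 over the 8 libraries, so the 2 did not change in equal proportion. NDUFS6 and MT-ND4L were apart in each line, and the NDUFS6 difference was larger than that of any member in either CHEK1 fit. NDUFA9, a Q module subunit related to short-chain dehydrogenases, had 0.56, NDUFA13 0.44 and NDUFB8 0.38. NDUFB5 had -0.41, NDUFC1 -0.41 and NDUFB6 -0.34. NDUFA6 had -0.59, which came to -1.12 without the ARP1 control of overexpression and to -0.05 without that of H929. Comparisons that share these controls are not independent of each other.

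In the fits over all 8 libraries, members passed the threshold between the lines, where 4 libraries stood against 4, and in none of the other comparisons. Of 41 members, 10 passed in ARP1 against H929, 24.4%, a share near the 27.1% of all genes that did. All 10 were nuclear, 7 higher in ARP1 and 3 lower (13.7% and 13.4% of all genes), and none of the 7 mitochondrial members passed. The lines did not overlap in 11 of 41 members, 26.8%, against 27% of all genes, 6 higher in ARP1 (13.3%) and 5 lower (13.7%). Members are given as ARP1 against H929, each for overexpression, its control, the library labelled knockdown and its control.

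NDUFV1, the flavin-bearing subunit that oxidises NADH, had 146, 168, 169 and 171 FPKM in ARP1, against 88.7, 97.3, 108 and 93.8 in H929 (log2 0.75 ± 0.08 SE, limma adjusted p = 0.00246). NDUFB9, a LYR family subunit of the distal arm, had 131, 117, 113 and 117, against 60.7, 68.3, 68.4 and 67.4 (0.84 ± 0.10, limma adjusted p = 0.00282). In both, the lowest ARP1 library stood well above the highest of H929. NDUFB7, on the intermembrane face of the distal arm, had 174, 229, 186 and 225 in ARP1, against 111, 123, 136 and 139 in H929 (0.67 ± 0.10, limma adjusted p = 0.00541). NDUFA11, a membrane-spanning supernumerary subunit, had 152, 174, 170.1 and 167 in ARP1, against 83.8, 87.7, 132 and 109.7 in H929 (0.70 ± 0.12, limma adjusted p = 0.0087). Again the lines did not overlap. NDUFA7 of the N module averaged 53.0 ± 8.32 in ARP1 and 38.0 ± 6.07 in H929 (SD, n = 4 each; 0.47 ± 0.09 SE), and NDUFS7, the core Q module subunit with the last iron-sulfur cluster before ubiquinone, 76.4 ± 9.48 and 56.8 ± 6.66 (0.42 ± 0.09). NDUFA3 averaged 75.7 ± 17.0 in ARP1 and 47.3 ± 11.9 in H929 (0.68 ± 0.18). The ranges of NDUFA7 and NDUFS7 overlapped between the lines, and within every genotype ARP1 was higher for all 7. For NDUFA3 the controls of knockdown lay close, at 63.8 FPKM in ARP1 against 60.4 in H929. NDUFA3 did not pass with no filter on low values, nor with no variance trend.

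Lower in ARP1 was NDUFC1, a small subunit of the proximal membrane arm, with 23.3, 22.4, 23.0 and 30.9 FPKM in ARP1, against 35.2, 33.4, 34.8 and 43.6 in H929 (log2 -0.55 ± 0.09 SE, limma adjusted p = 0.00712). NDUFA5 had 58.2, 43.2, 42.9 and 54.2 in ARP1, against 77.0, 64.3, 60.1 and 70.0 in H929 (-0.45 ± 0.09, limma adjusted p = 0.0126). NDUFC2, the partner of NDUFC1, averaged 151.9 ± 23.8 in ARP1 and 187 ± 17.3 in H929 (-0.31 ± 0.09, limma adjusted p = 0.0465). Neither NDUFC1 nor NDUFA5 overlapped between the lines, and NDUFC2 did. NDUFV3, which the ranking took next, had -0.25 and did not pass. MT-ND3 had -0.40 ± 0.15 (limma adjusted p = 0.0962), with every ARP1 library below every H929 library. By module, 2 of 10 N module, 2 of 5 Q module, 4 of 13 proximal and 2 of 12 distal members passed.

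The count moved with single libraries, as did that of all genes. With a genotype term, a library left without its partner from the other line adds nothing to the difference between lines. Leaving out either library of a genotype thus gave the same log2 changes, and such fits are not separate checks. Without the ARP1 or the H929 control of overexpression, 5 of 34 nuclear members passed (14.7%), against 12.4% and 12.3% of all genes. Without the H929 control of knockdown 6 did (17.6%), against 13.6%, and without either library labelled knockdown 12 did (35.3%), against 27.1%. In the 3 fits with 5 or 6, NDUFV1, NDUFB9, NDUFB7, NDUFA11 and NDUFC1 passed each time. Equal library totals gave 7 higher and 5 lower, and equal totals without the mitochondrially encoded genes 7 and 7, where the higher share of all called genes was 40.1% and 38.2%, against 50.5% in the deposited scale.

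**Figure D4:**
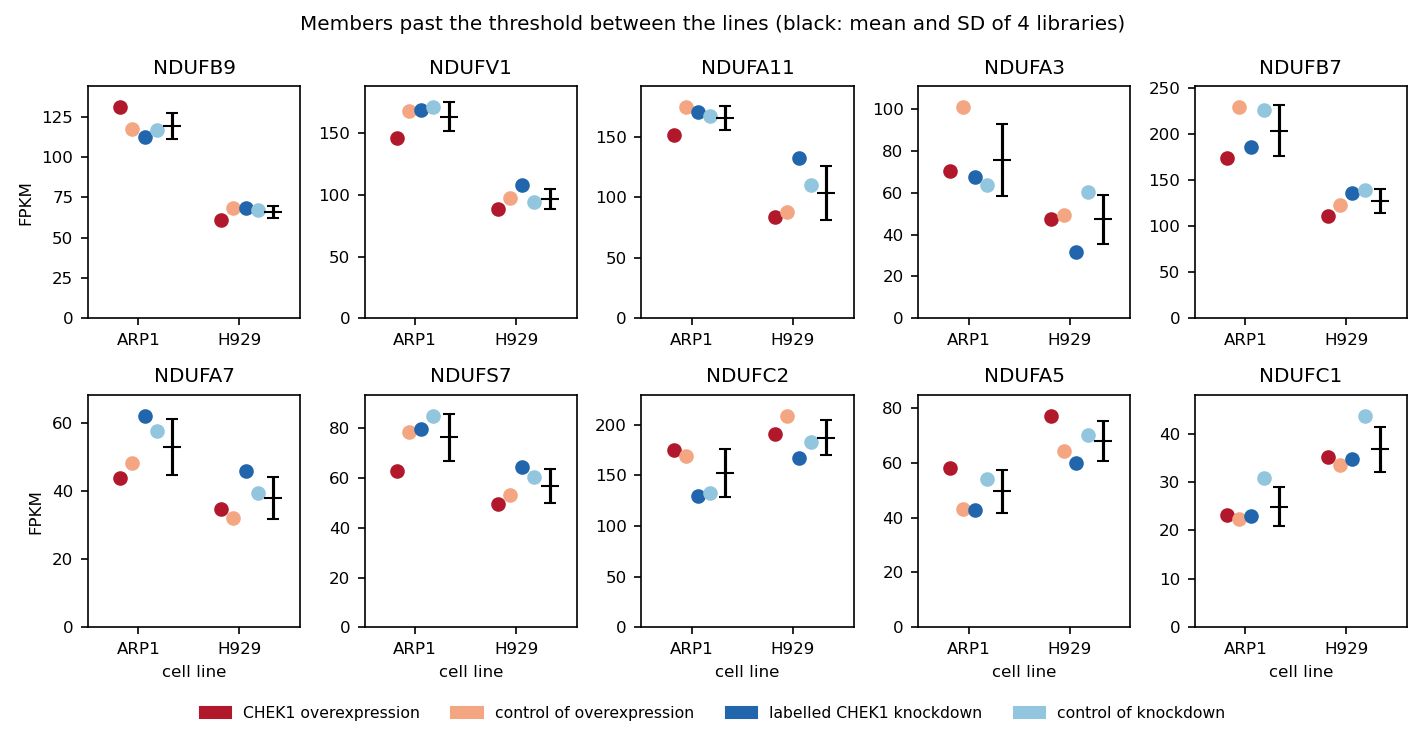
FPKM of the 10 members past the threshold between ARP1 (left) and H929 (right), 1 point per library coloured by genotype, with black bars for the mean and SD of each line's 4 libraries. The top row and the first 2 panels of the bottom row are higher in ARP1 (NDUFB9 113 to 131 against 60.7 to 68.4 FPKM), and the last 3 are lower (NDUFC1 22.4 to 30.9 against 33.4 to 43.6).

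The members that differed between the lines were not spread evenly over the genome, a pattern looked for after the values were seen. Chromosome 19 holds 6 nuclear members, NDUFS7, NDUFA11, NDUFA7, NDUFB7, NDUFA13 and NDUFA3, and all 6 had a positive log2 change in ARP1 against H929 (median 0.57), with 5 past the threshold. Of the other 28 nuclear members, 13 were positive, 2 passed as higher and 3 as lower. The chromosome as a whole went the same way: of its 994 other tested genes, 83.1% were positive and 34.3% passed as higher, against 47.8% and 12.2% of the 13877 genes elsewhere. That share was the highest of the 22 autosomes and X. Next came chromosomes 22, 16 and 18, with 22.1%, 21.9% and 21.7% of their genes called higher. Their members NDUFA6, NDUFB10, NDUFAB1 and NDUFV2 did not pass. Chromosomes 7 and 21 lay at the other side. Of the 701 genes of chromosome 7, 31.1% were called lower (median -0.26), and it holds NDUFA5, which passed at -0.45, and NDUFB2, which did not pass at -0.62. Of the 167 genes of chromosome 21, 25.7% were called lower (median -0.31), and it holds NDUFV3, which did not pass at -0.25. The lines' chromosome copy numbers and the base composition of these genes were not tested.

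Promoter sequence is printed for NDUFB7, NDUFA11 and NDUFA7, higher in ARP1, and NDUFC1, lower in ARP1, since they passed between the lines and 3 of them share a chromosome. Each run holds the 250 bases before the start on GRCh38.p14, 5′ to 3′, from RefSeq, and capitals mark a motif found. In the order printed, all on the minus strand, they lie at chr19:14572067-14572316, chr19:5903791-5904040, chr19:8321376-8321625 and chr4:139302552-139302801.
NDUFB7: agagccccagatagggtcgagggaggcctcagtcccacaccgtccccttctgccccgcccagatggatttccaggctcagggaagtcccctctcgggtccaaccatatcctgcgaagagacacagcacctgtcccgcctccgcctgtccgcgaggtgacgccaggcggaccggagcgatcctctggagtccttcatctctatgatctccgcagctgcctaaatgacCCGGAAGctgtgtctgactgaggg
NDUFA11: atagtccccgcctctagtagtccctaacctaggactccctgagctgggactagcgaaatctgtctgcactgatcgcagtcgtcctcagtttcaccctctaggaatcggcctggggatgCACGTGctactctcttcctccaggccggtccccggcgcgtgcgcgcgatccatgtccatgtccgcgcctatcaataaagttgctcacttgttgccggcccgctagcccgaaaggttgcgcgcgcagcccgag
NDUFA7: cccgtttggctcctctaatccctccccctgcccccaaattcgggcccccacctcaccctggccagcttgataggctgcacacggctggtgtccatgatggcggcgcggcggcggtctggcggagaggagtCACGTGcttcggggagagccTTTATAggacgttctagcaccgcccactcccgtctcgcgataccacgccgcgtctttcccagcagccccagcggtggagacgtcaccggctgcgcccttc
NDUFC1: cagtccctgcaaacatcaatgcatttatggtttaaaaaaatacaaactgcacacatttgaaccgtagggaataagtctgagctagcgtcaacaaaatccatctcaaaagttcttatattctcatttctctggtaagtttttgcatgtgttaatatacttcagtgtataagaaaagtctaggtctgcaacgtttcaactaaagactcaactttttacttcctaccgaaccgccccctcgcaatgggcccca
NDUFB7 holds the ETS letters CCGGAAG, NDUFA11 and NDUFA7 hold the E box CACGTG, and NDUFA7 also holds TATAAA read on the other strand. GC made up 62.8%, 60.8% and 66.8% of the 3 chromosome 19 windows and 38.8% of the NDUFC1 window. The NDUFC1 window belongs to 1 of 4 listed starts. It lies near the lowest of the members' windows, 36.8%, where their median was 60.8%. Whether GC differs between higher and lower members was not tested.

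Over the 30 nuclear members with a RefSeq promoter, motif matches were about as frequent as among all 27305 genes with one. Each listed start was searched on both strands, and motifs were allowed to overlap. The ETS letters CCGGAAG, which GABP binds, stood in 4 of 30 (13.3%), against 10.2% of all genes, and the NRF1 motif in 1, NDUFB4 (3.33%), against 1.28%. The YY1 motif stood in 0, against 0.439%, CACGTG in 3 (10%), against 7.73%, GGGGCGGGG in 5 (16.7%), against 17.9%, and TATAAA in 3 (10%), against 13%. These are matches of letters, not sites shown to be bound. The median GC of the members' windows was 60.8%, against 58.0%.

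Genes that make, or work beside, complex I were read in the same fits. Between ARP1 and H929, where 27.1% of all genes passed (13.7% higher and 13.4% lower), 6 of 19 assembly factors passed (31.6%), 3 in each direction, among them ECSIT at log2 0.93 and TMEM126B, of the membrane arm assembly complex, at -0.53. Of complex II 0 of 4 passed as higher and 2 as lower, SDHD at -0.42 and SDHA at -0.39. Of complex III 3 of 9 passed as higher, with UQCRB at 0.57, of complex IV 4 of 11 as higher and 1 as lower, with COX6B1 at 0.57 and COX8A at -0.42, and of the ATP synthase 3 of 16 as higher and 1 as lower, with ATP5ME at 1.27 and ATP5MF at -0.35. None of 6 other mitochondrially encoded genes passed. Of 20 genes of mitochondrial transcription and RNA stability, 0 passed as higher and 3 as lower, FASTK at -0.54, SLIRP at -0.69 and GRSF1 at -0.39. Of 8 tested nuclear regulators, MYC passed as higher at 1.23 and YY1 as lower at -0.36.

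In the libraries labelled knockdown, none of these lists had a gene past the threshold. The 20 genes of mitochondrial transcription and RNA stability were all negative, with a median of -0.18, from -0.40 in ARP1 and -0.05 in H929, against -0.02 over all genes. FASTKD4 had -0.53 and MTERF1, a mitochondrial termination factor, -0.45, without passing. Of the 19 assembly factors 14 were negative and 5 positive, with a median of -0.12, and NDUFAF1 had -0.65 ± 0.21 (limma adjusted p = 0.529). The largest change of that list was positive, COA1 at 1.098 ± 0.510 (limma adjusted p = 0.567). COA1 had 307.4 and 418.6 FPKM in the ARP1 and H929 libraries labelled knockdown, against 259.6 and 107.4 in their controls. Complex II had 0 of 4 positive, complex III 1 of 9, complex IV 5 of 11 and the ATP synthase 5 of 16. In ARP1 alone the list medians were -0.32 for assembly factors, -0.31 for complex II, -0.25 for complex III, -0.11 for complex IV, -0.24 for the ATP synthase and 0.05 for the nuclear regulators. With overexpression none of the lists had a gene past the threshold, and their medians lay between -0.09 and 0.10.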

How the data were processed

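The authors deposited 1 table of FPKM per transcript, with 1 column per library, headed as means, and the runs behind a column are not stated. Per the submitters' processing notes, Bowtie 0.12.2, HISAT2 2.0 and StringTie 1.3.0 were used with build mm8, although the transcript identifiers are human, and no human build is named in the sources read. Transcripts were joined to GENCODE 29 on GRCh38 (87707 matched, 502 not), summed per gene, and taken as log2 of FPKM + 1, which understates changes of low genes such as NDUFA6. Fits used limma 3.58.1 in R 4.3.3 over all 8 libraries, two-sided, with a genotype term and a line term, 3 residual and 3.74 prior degrees of freedom, a variance trend and Benjamini-Hochberg adjustment over 14905 genes. Replicate numbers mark the cell line, so the line entered as a block. Differences of effects between lines pooled the controls within a line, which left 2 residual degrees of freedom. Ratios within a line have no replicate and no p-value. The fit was tested on simulated data. Named members were the 7 mitochondrial ones, nuclear ones past the threshold, and, up to 4 per direction, those with the largest smaller ratio of both lines. Members and lists were chosen with earlier results of these data known. Alternatives are given at the end.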

Additional observations from a re-analysis of the deposited data

Results flagged for a closer look

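For 41 members in each line, 82 sets of 4 libraries were examined for 1 library far from the rest, and 5 were marked because the gap to the nearest library, as a part of the range, was above Dixon's critical value. Chance marks about 1 in 20 such sets, which is close to this number. In the ARP1 control of knockdown, NDUFC1 had 30.9 FPKM, against 22.4 to 23.3 in the other ARP1 libraries. In the H929 control of knockdown, NDUFB6 had 41.6, against 32.7 to 33.6. Both values enter the knockdown comparison as its control, and with the other control of the line its log2 changes came to 0.04 for NDUFC1 and 0.01 for NDUFB6. NDUFA13 stood at 117 in the H929 control of overexpression, against 93.6 to 97.4. NDUFV1 stood at 146 in ARP1 overexpression, against 168 to 171, and NDUFB9 at 60.7 in H929 overexpression, against 67.4 to 68.4. Neither value reached the range of the other line.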

How the results depend on the processing

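With FPKM plus 0.1, other filters, scalings, variance settings, transcript or gene classes, no replicate block and each library left out, 0 mitochondrial members passed in the 4 comparisons in which all of these were run, and 0 nuclear members passed for overexpression or between the controls. Without the block for the line, or the genotype term between lines, 8 nuclear members passed in ARP1 against H929 (7 and 3 became 6 and 2, NDUFA7 and NDUFC2 not passing) and 0 elsewhere. In ARP1 against H929, NDUFA3 and NDUFC2 did not pass with no filter on low values, nor with no variance trend. Leaving out 1 library gave 5 to 12 there (12.3% to 27.1% of all genes), where a library left without its partner adds nothing. For knockdown, where a lone library was assumed to vary like the others, the nuclear median ran from -0.29 to 0.029. For the differences of effects between lines no library was left out. Over these the nuclear median ran from -0.11 to 0.033 for overexpression and from -0.11 to 0.080 between controls, and the mitochondrial median for knockdown from -0.11 to 0.26. The mitochondrial knockdown median of 0.01 was 0.037 and 0.039 with equal totals, with and without mitochondrially encoded genes, 0.053 without transcripts under 300 nt, 0.12 with pooled controls and 0.17 with the other control. The nuclear median between controls, -0.032, was -0.015 at 5 FPKM, -0.027 by median ratios, -0.0053 and -0.026 with these equal totals, and -0.0105 without short transcripts. The ratio of sums without short transcripts was 3.87 for ARP1 labelled knockdown, 3.61 for the control of that library, 4.06 and 3.77 in H929 overexpression and its control, and 4.13 and 3.63 in the H929 library labelled knockdown and its control, since MT-ND4L is left out. With the other control, 2 in place of 0 nuclear members were higher by 1.5-fold in ARP1 overexpression (6.33% of all genes), and 2 in place of 0 higher (8.47%) and 2 in place of 1 lower (5.74%) in the H929 library labelled knockdown. At 2-fold, 1 in place of 5 was lower for ARP1 labelled knockdown (3.72%), and 0 in place of 1 lower for H929 labelled knockdown (1.75%) or higher in H929 overexpression (1.28%). Reversed log2 changes were 0.066 (NDUFA13) and 0.18 (NDUFB8) for overexpression with the other control, and, for knockdown, -0.26 (NDUFV3), -0.31 (NDUFB8), 0.012 (NDUFB6) and 0.045 (NDUFC1) with the other control and -0.082 (NDUFV3) and -0.12 (NDUFB8) with pooled controls. The causes were not tested. Depth is unknown, and 2 libraries per genotype limit every comparison.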
